A study of Saccharomyces cerevisiae with 12 samples.

Results

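The transcript response of gpa2 deletion yeast to a move from rich maltose medium to low-ammonium maltose medium was measured on 6 of the 12 arrays of the series, which were all those labelled with strain MLY132. Affymetrix Yeast S98 arrays give 1 log2 expression value for each probe set, a group of short probes against a transcript. Every gene with a probe set that carried its symbol and no other was described, which gave 5656 genes from 9335 probe sets. Where a gene had several such probe sets, the one with the highest mean over the 12 arrays stood for it.

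MLY132 is a MATa/alpha diploid of Saccharomyces cerevisiae in which both copies of GPA2 are replaced by a G418 resistance marker and both copies of URA3 are ura3-52. The group gpa2 deletion SLAM (n = 3 arrays) came from cells grown in YPM to an OD600 of 1.0, filtered and held for 2 h at 30 °C in SLAM, made of 2% maltose, 0.17% yeast nitrogen base free of amino acids, and ammonium sulfate at 50 µM. The group gpa2 deletion YPM (n = 3) was filtered from YPM at the same OD600 with no such transfer. The wild type MLY61, a MATa/alpha diploid with the same ura3-52 alleles and intact GPA2, was sampled in SLAM (n = 3) and in YPM (n = 3) and is used here for comparison only. The design text gives 3 cultures for each condition, without saying whether a SLAM and a YPM sample shared a culture. The deletion is represented by 1 strain. The low ammonium, the change from rich to defined medium, the filtration and the extra 2 h of culture cannot be told apart in this design.

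Gpa2 is the alpha subunit of a G protein that works with the receptor Gpr1 and stimulates adenylate cyclase, whose product, cAMP, activates protein kinase A. In diploid yeast short of nitrogen this pathway, together with a MAP kinase cascade, is known for its part in pseudohyphal growth. Separately, good nitrogen sources keep genes for the use of poor ones shut, through the GATA factors Gln3 and Gat1, which is called nitrogen catabolite repression. The kinase complex TORC1 and protein kinase A both favour the making of ribosomes in well-fed cells.

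The deletion was seen in every array of MLY132. GPA2 read 5.42, 5.14 and 5.49 on the deletion SLAM arrays and 5.60, 5.20 and 5.48 on the deletion YPM arrays, while the wild-type arrays lay between 9.70 and 11.10. Over both media the deletion averaged 5.39 ± 0.18 and the wild type 10.44 ± 0.55 (SD, n = 6 each), which is 5.05 log2 units apart (deletion minus wild type -5.05; p = 0.00216 in an exact two-sided permutation test, the smallest p that 924 splits can give). The highest of these deletion readings, 5.60, is used below as a guide to background, although each probe set has its own: where the lower of 2 group means lay at or under it, the fold is given as a lower bound, which also holds for the log2 changes of DCG1, AGP3, ALD2, ARO80, AAH1, SUL1 and ADE4. Of 15 genes that are normally low in a/alpha diploids, 7 averaged at or below that reading on the deletion arrays. Among them were the pheromone receptor gene STE2 and the mating factor arrest gene FAR1, though FAR1 ranged from 4.76 to 7.24. The mean of the 15 genes per array lay between 6.02 and 6.56 in deletion SLAM and between 5.72 and 6.04 in deletion YPM. AXL1, STE5, the other receptor gene STE3 and MF(ALPHA)1 averaged above the guide, at 5.92 to 7.001. STE4, MFA2, RME1 and MFA1 were not low, at 7.33 to 8.47. The probe set of MFA1 may match other genes, as may those of UGA2, SAM3, ENO2, MAL31, TKL2, HSP82, IMD2 and IMD3 below, so that the gene behind these values is uncertain.

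Array medians lay between 7.38 and 7.43 on the 6 deletion arrays. The first principal component of the 12 arrays (59.4% of the variance) placed the deletion SLAM arrays at 52.1, 42.8 and 54.9, and the deletion YPM arrays at -27.3, -34.5 and -6.17. YPM replicate 3 stood apart from its group on this axis, on the side of SLAM. The deletion SLAM arrays were spread along the second component (11.1% of the variance), at -2.16, 17.5 and -21.0 for replicates 1, 2 and 3. SLAM replicate 3 had the lowest mean Spearman correlation with its group of the 6 deletion arrays (0.922, against 0.927 for SLAM replicate 2). Spearman correlations across genes were 0.897 to 0.977 between deletion arrays of the same medium, and 0.760 to 0.880 between media. The median SD of a gene was 0.34 in SLAM and 0.23 in YPM.

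Over the whole transcriptome 1592 genes (28.1%) changed: 757 (13.4%) were higher and 835 (14.8%) were lower in deletion SLAM than in deletion YPM, at adjusted p < 0.05. Here and below a gene rose or fell if it passed this threshold in limma's moderated test, with Benjamini-Hochberg adjustment over all 5656 genes. The 3 SLAM and 3 YPM values did not overlap in 2521 genes (44.6%), and 1545 genes (27.3%) both passed and did not overlap. Changes of at least 2-fold made up 500 of the rises (8.84%) and 662 of the falls (11.7%). The falls reached further in number: 181 lay between 2 and 3 on the log2 scale and 40 beyond 3, against 86 and 30 of the rises. The median over all genes was 0.01. With 1 array left out the rises numbered 411 without YPM replicate 1, 402 without YPM replicate 2, 432 without SLAM replicate 1 and 619 to 722 without any of the others, and the falls were 543 without YPM replicate 2 and 598 to 896 otherwise. Without YPM replicate 3 and SLAM replicate 2 together the counts were 710 and 878. That fit kept SLAM replicate 3, and with SLAM replicate 3 alone left out the counts were 619 and 636.

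**Figure D1:**
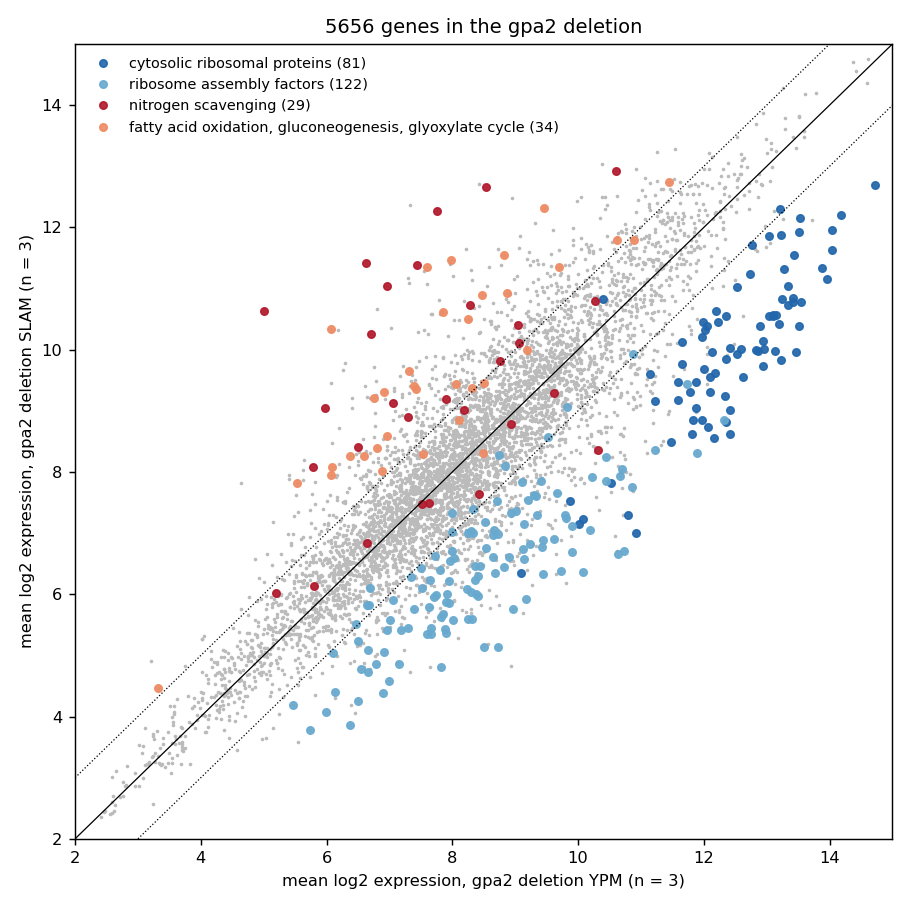
Mean log2 expression of 5656 genes in gpa2 deletion SLAM (vertical axis, n = 3) against gpa2 deletion YPM (horizontal axis, n = 3). The solid line marks equal levels and the dotted lines 2-fold changes. Cytosolic ribosomal protein and ribosome assembly genes lie mostly below the lower dotted line, and genes for scavenging nitrogen, fatty acid oxidation, gluconeogenesis and the glyoxylate cycle mostly above the solid line.

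Genes for taking up poor nitrogen sources were among the largest rises. DAL80, which encodes a GATA repressor that is itself under nitrogen catabolite repression, read 10.53, 10.80 and 10.55 in deletion SLAM, against 5.08, 4.77 and 5.15 in deletion YPM. It rose at least 49.5-fold (log2 5.63, SE 0.65, adjusted p = 0.000325). The other GATA factor genes and their cytoplasmic inhibitor moved less: GAT1 stood at 1.06 (adjusted p = 0.0689), GLN3 at 0.34 and GZF3 at -0.13, and URE2 fell by 0.79 (adjusted p = 0.042), a call that ended with any of the 6 arrays left out.

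MEP2, the high-affinity ammonium permease that is also needed for pseudohyphal growth, read 12.37, 12.40 and 12.03 in SLAM, against 8.11, 7.42 and 7.76 in YPM, a 22.7-fold rise (log2 4.50, SE 0.53, adjusted p = 0.000336). The groups lay far apart, since the lowest SLAM array was nearly 4 log2 units above the highest YPM array. The related ammonium permeases gave log2 changes of 1.04 for MEP1 (adjusted p = 0.047, a call that ended with any of the 6 arrays left out) and -0.32 for MEP3 (adjusted p = 0.584). GAP1 encodes the broad-range amino acid permease and read 12.38, 12.98 and 12.64 in SLAM, against 8.53, 8.20 and 8.85 in YPM (log2 4.14, SE 0.36, adjusted p = 0.000147). It varied little within either medium.

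Of 11 permeases under nitrogen catabolite repression, 7 rose and 1 fell, with a median log2 change of 3.06 against 0.01 over all genes. Beside MEP1, MEP2 and GAP1 these were DAL4 for allantoin (log2 4.08, SE 0.69), DAL5 for allantoate (3.95, SE 0.80), UGA4 for GABA (3.55, SE 0.55) and DUR3 for urea (3.06, SE 0.61). DAL5 had other probe sets with changes of -0.10 and 2.71, the first of them dim with a mean of 4.72. PUT4, for proline, stood at 2.32 (SE 0.94, adjusted p = 0.0856), and OPT2, for oligopeptides, at 1.30. The fall was that of the peptide transporter gene PTR2, which read 7.50, 9.11 and 8.44 in SLAM, against 10.19, 10.06 and 10.69 in YPM (log2 -1.96, SE 0.60, adjusted p = 0.0303). Its groups did not overlap, but the call was lost without any array other than SLAM replicate 2.

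Enzymes that break these compounds down also rose in part. Of 7 genes for allantoin and urea use, 5 rose: DAL3 (ureidoglycolate lyase, log2 2.45, SE 0.39), DAL7 (a malate synthase, 2.29), DAL2 (allantoicase, 1.91), the activator gene DAL82 (0.83) and DCG1 (0.83). DAL1, the allantoinase gene (-0.16), and the regulator gene DAL81 (-0.05) did not pass. With SLAM replicate 1, YPM replicate 1 or YPM replicate 2 left out, 3 of the 7 rose. Among 6 genes for proline and GABA use 4 rose, led by the proline oxidase gene PUT1, at 11.18, 12.09 and 10.99 in SLAM, against 6.01, 5.72 and 8.13 in YPM (log2 4.80, SE 0.98, adjusted p = 0.0041). YPM replicate 3 was the highest YPM array for PUT1, still below every SLAM array. The next enzyme of the proline route, PUT2, stood at 0.53 (adjusted p = 0.296). The GABA pathway gave rises in UGA3 (an activator, 2.08), UGA2 (1.59) and UGA1 (1.36).

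The routes into glutamate moved in opposite directions. GDH1, the NADPH-dependent glutamate dehydrogenase that assimilates ammonium, read 9.74, 11.13 and 8.92 in SLAM, against 12.25, 12.21 and 11.70 in YPM (log2 -2.12, SE 0.43, adjusted p = 0.00416). GLT1, the glutamate synthase that uses glutamine, read 11.69, 11.21 and 12.08 in SLAM, against 8.52, 8.79 and 9.85 in YPM (log2 2.60, SE 0.60, adjusted p = 0.00774). In neither gene did the groups overlap. GDH3, the isozyme of Gdh1, rose by 1.60 (SE 0.50), which was lost without SLAM replicate 1 or 3 or YPM replicate 2 or 3, and GLN1, glutamine synthetase, stood at -0.20 (adjusted p = 0.794).

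Permeases listed here as induced by amino acids outside the cell went mostly the other way. Of 9 such genes 4 fell and 1 rose, with a median of -1.57. BAP3, for branched-chain amino acids, read 4.76, 4.85 and 4.88 in SLAM, against 9.14, 9.19 and 8.48 in YPM, so it fell at least 17.2-fold (SE 0.57, adjusted p = 0.000712). All 3 SLAM readings lay under the background guide. TAT1, for tyrosine and valine, fell 12.3-fold (log2 -3.62, SE 0.38), GNP1, for glutamine, 6.47-fold (-2.69, SE 0.44) and TAT2, for tryptophan, 5.70-fold (-2.51, SE 0.25). AGP1 (-1.57, adjusted p = 0.179), BAP2 (-1.14), MUP1 (-0.67) and DIP5 (-0.66) did not pass, and MMP1, for S-methylmethionine, rose by 1.69 (adjusted p = 0.047), a call that was lost without any array other than SLAM replicate 3. The sensor gene SSY1 (0.72) and its factor gene STP2 (0.95) rose, while STP1 (0.63), PTR3 (0.53) and SSY5 (-0.17) did not pass. Without YPM replicate 1 neither SSY1 nor STP2 passed, and without YPM replicate 2 only 1 of them did. Among 8 other amino acid permeases SAM3 (1.74), CAN1 (1.69), AGP3 (1.34) and AGP2 (0.73) rose and the histidine permease gene HIP1 fell by 0.96, with 2 rises left without YPM replicate 1 or YPM replicate 2.

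**Figure D2:**
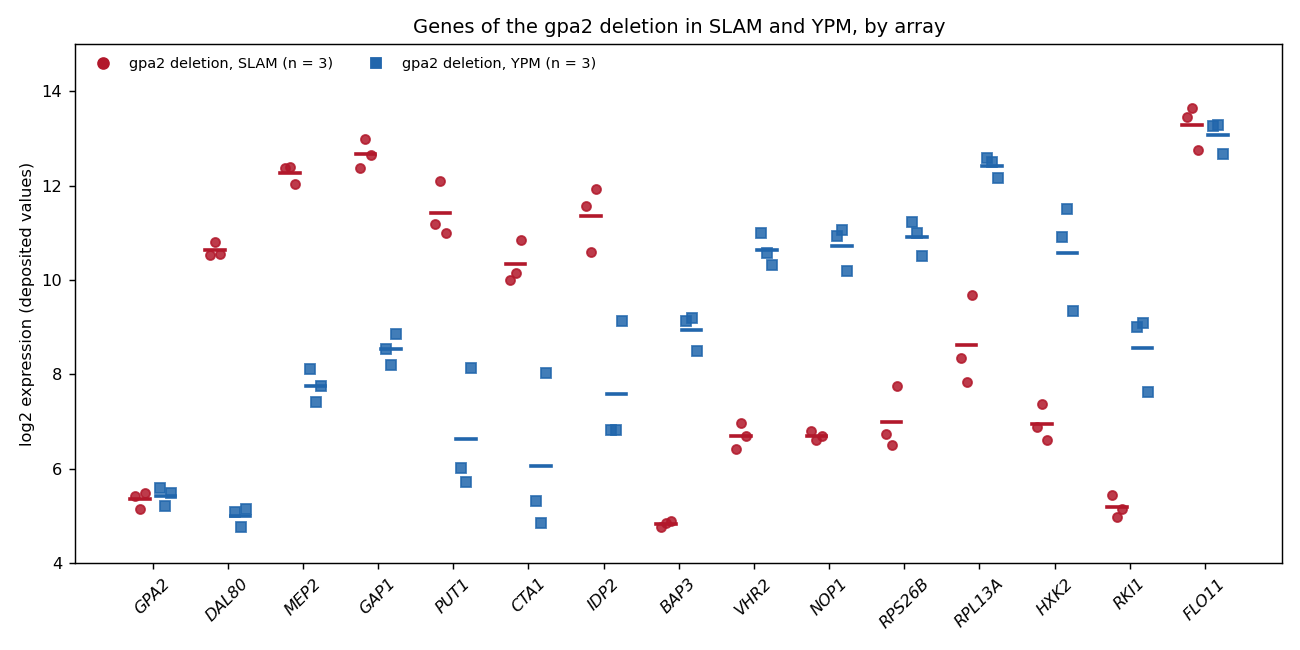
Log2 expression of 15 genes on each gpa2 deletion array, with SLAM arrays as circles and YPM arrays as squares (n = 3 each) and horizontal bars at the group means. DAL80, MEP2 and GAP1 are far higher on all 3 SLAM arrays, BAP3, VHR2, NOP1 and HXK2 far lower, and FLO11 lies between 12.66 and 13.65 on all 6.

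Genes for the ribosome itself fell almost throughout. Of 47 large subunit ribosomal protein genes with a probe set that carried no other symbol (81 listed) 46 fell, with a median of -2.56. Of 34 small subunit genes (57 listed) 33 fell, with a median of -2.51. The probe sets of 14 of the large and 16 of the small subunit genes may match other genes. With such probe sets left out, 33 large and 18 small subunit genes fell. None rose. RPL13A read 8.34, 7.83 and 9.69 in SLAM, against 12.58, 12.51 and 12.16 in YPM (log2 -3.79, SE 0.49, adjusted p = 0.000529). RPS26B read 6.75, 6.50 and 7.76 in SLAM, against 11.23, 11.00 and 10.52 in YPM (log2 -3.92, SE 0.57, adjusted p = 0.000845). In both genes SLAM replicate 3 was the highest SLAM array. The same held for the mean of the 47 large subunit genes, which lay at -2.81, -2.91 and -1.60 from the YPM mean on SLAM replicates 1, 2 and 3. RPL16B (log2 -3.54, SE 0.44), RPS22A (-3.50), RPL36B (-3.50) and RPL27A (-3.61) fell too, where the probe sets of RPL36B and RPL27A may match other genes, so that the gene behind their values is uncertain.

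Most yeast ribosomal proteins are encoded by a pair of near-identical genes. Both copies were measured for 31 pairs, and in 29 of them both fell. The exceptions were RPL15A with RPL15B and RPS14A (-1.88) with RPS14B (-1.54), of which the B copies did not pass. Both exceptions lay among the 14 pairs in which neither probe set may match other genes. In the remaining pairs a probe set may match other genes, so a fall of both copies is less certain there. Among the 14 pairs in which neither probe set may match other genes, the median gap between copies was 0.995 on the log2 scale, and the gaps ran from 0.018, for RPL22A (-2.75) and RPL22B (-2.74), to 2.99, for RPL15A and RPL15B. RPS0A (-3.10) and RPS0B (-3.12) also lay close together. RPL15A fell to 8.68, 9.87 and 10.31 in SLAM, against 12.23, 12.33 and 11.98 in YPM (log2 -2.56, SE 0.39), while RPL15B read 10.73, 10.86 and 10.91 in SLAM, against 10.61, 10.50 and 10.10 in YPM (0.43, adjusted p = 0.14). These pairs were singled out after their values were seen, and the difference between copies was not tested.

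Factors that make ribosomes fell as a block. All 51 genes of the small subunit processome and box C/D particles, which cut and methylate the ribosomal RNA precursor, fell, with a median of -1.92, and so did 62 of 66 large subunit assembly factors, with a median of -2.04. NOP1, the methyltransferase of box C/D particles, read 6.79, 6.61 and 6.70 in SLAM, against 10.93, 11.06 and 10.19 in YPM, a 16.3-fold fall (log2 -4.03, SE 0.49, adjusted p = 0.000425). Its partners NOP56 (-3.71, SE 0.80) and SNU13 (-3.59, SE 0.47) fell with it. NSR1, a nucleolin-like protein, fell 15.8-fold (-3.98, SE 0.63), and UTP13 of the processome at least 12.0-fold (-3.58, SE 0.43). Of the box H/ACA proteins, which guide pseudouridine formation, GAR1 (-2.87), CBF5 (-2.65) and NHP2 (-2.29) fell. The assembly factors of those particles, NAF1 (-0.75, adjusted p = 0.0623) and SHQ1 (-0.59), did not pass. Leaving out 1 array left 42 to 50 of the 51 and 53 to 64 of the 66.

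Most subunit genes of RNA polymerases I and III fell. Polymerase I, which copies the ribosomal RNA genes, had 6 of 8 genes lower and a median of -2.63. RPA49 read 5.81, 5.06 and 6.22 in SLAM, against 9.34, 9.48 and 8.53 in YPM (log2 -3.42, SE 0.44), and RPA135 (-2.97), RPA12 (-2.83), RPA43 (-2.72), RPA34 (-2.54) and RPA190 (-2.53) fell too. The subunit gene RPA14 (-0.80, adjusted p = 0.0657) and the initiation factor gene RRN3 (0.65, SE 0.64) did not pass. Polymerase III, which copies transfer RNA and 5S genes, had 9 of 10 genes lower and a median of -1.10, from RPC11 at -1.68 to RPC34 at -0.75, and RPC37 at -0.09 did not pass. That count was 5 without SLAM replicate 3, YPM replicate 1 or YPM replicate 2. RPC40 (-1.94) and RPC19 (-1.86), which serve both enzymes, fell. For polymerase II the falls were RPB3 (-1.40), RPB9 (-1.40) and RPB2 (-0.70), 3 of 7 genes, with 1 left without SLAM replicate 3 or YPM replicate 2, and its largest subunit gene RPO21 stood at 0.12.

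Most translation genes fell as well. Of 19 aminoacyl-tRNA synthetases, which charge transfer RNAs, 17 fell with a median of -1.67, led by FRS1 for phenylalanine (-2.38, SE 0.34) and WRS1 for tryptophan (-2.34). Initiation factors fell in 19 of 24 cases (median -1.34), with RPG1 (-2.46), NIP1 (-2.06) and PRT1 (-2.02), all of factor eIF3, and TIF5 (-2.03) lowest. Among 10 elongation and termination factors TEF4 (-2.75), STM1 (-2.62), SUP45 (-1.97), YEF3 (-1.32) and EFB1 (-1.24) fell. HEF3, the paralogue of the elongation factor gene YEF3, rose by 2.64 (SE 0.77, adjusted p = 0.0244) with SLAM readings as wide as 10.37, 8.49 and 11.89, against 7.83, 7.05 and 7.97 in YPM, and CAM1 rose by 0.73. Only 1 of these 2 rises was left without SLAM replicate 1, SLAM replicate 3 or YPM replicate 1, and none without YPM replicate 2.

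Of 73 mitochondrial ribosomal protein genes 42 fell, and the median was -1.002. MNP1, related to the bacterial stalk protein, read 8.26, 7.98 and 7.14 in SLAM, against 9.56, 9.84 and 10.46 in YPM (log2 -2.16, SE 0.45, adjusted p = 0.00445). YPM replicate 3 was the highest YPM array here, while it was the lowest for the cytosolic genes RPL13A and RPS26B. The count was 17 without YPM replicate 3, 18 without SLAM replicate 3 and 22 without SLAM replicate 1 or YPM replicate 2.

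**Figure D3:**
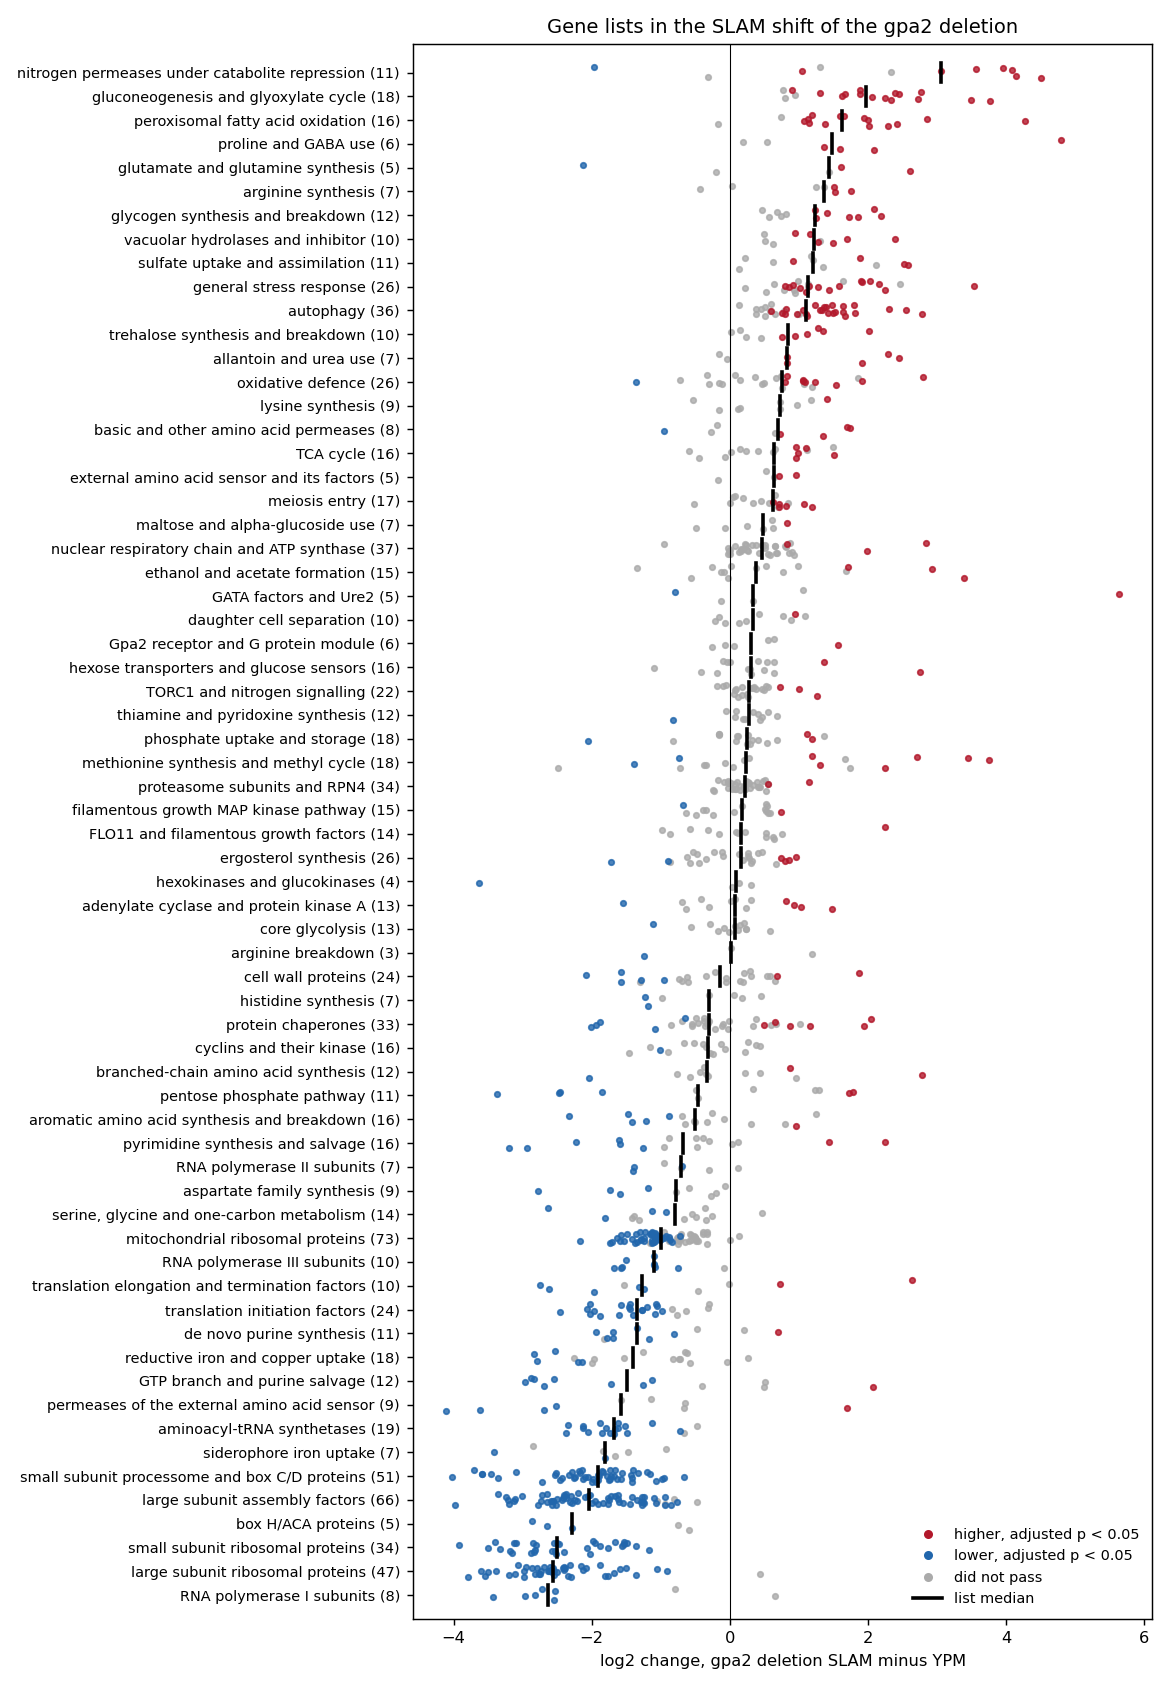
Log2 change between gpa2 deletion SLAM and YPM for each measured member of the lists with at least 3 measured genes (the number measured is in brackets), ordered by the list median (black bar). Red points rose and blue points fell at adjusted p < 0.05, and grey points did not pass. Permeases under nitrogen catabolite repression head the order, and polymerase I and cytosolic ribosomal protein genes close it.

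Genes for growth on carbon sources other than sugar rose. Of 18 genes of gluconeogenesis and the glyoxylate cycle 15 rose, with a median of 1.97, and of 16 genes of peroxisomal fatty acid oxidation 14 rose, with a median of 1.62. IDP2, the cytosolic isocitrate dehydrogenase, read 11.56, 10.60 and 11.92 in SLAM, against 6.82, 6.83 and 9.13 in YPM (log2 3.77, SE 0.86, adjusted p = 0.00707). The malate synthase gene MLS1 rose by 3.49, the isocitrate lyase gene ICL1 by 2.73 and the phosphoenolpyruvate carboxykinase gene PCK1 by 2.76. CTA1, the peroxisomal catalase, read 10.00, 10.16 and 10.85 in SLAM, against 5.31, 4.86 and 8.04 in YPM (log2 4.27, SE 0.69, adjusted p = 0.00147), and the thiolase gene POT1 rose by 2.85. In IDP2 and CTA1 the groups did not overlap, and YPM replicate 3 was more than 2 log2 units above the other YPM arrays. The gluconeogenic list as a whole lay at 0.94 from the YPM mean on YPM replicate 3, and at -0.41 and -0.53 on the other YPM arrays. Its count of rises was 15 without YPM replicate 3, and 6 without YPM replicate 2, 7 without YPM replicate 1, 8 without SLAM replicate 3, and with SLAM replicate 1 removed it was 9.

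Sugar metabolism changed at few genes. HXK2, the hexokinase that also takes part in glucose repression, read 6.88, 7.37 and 6.60 in SLAM, against 10.90, 11.50 and 9.34 in YPM, a 12.4-fold fall (log2 -3.63, SE 0.52, adjusted p = 0.000809). The other sugar kinase genes GLK1 (0.31), HXK1 (0.13) and EMI2 (0.04) did not pass. In core glycolysis the enolase gene ENO2 fell (-1.12, SE 0.26), the only change among 13 genes, whose median was 0.07. Among 16 hexose transporters and sensors HXT5 (2.75) and RGT2 (1.37) rose, near the 13.4% higher over all genes. HXT5 lost its call in 4 of the 6 cases with an array left out. The substrate of the maltose genes is in SLAM as in YPM. Of 13 listed, 7 had a probe set that carried no other symbol, and the maltase genes MAL12 and MAL32 did not. The 7 gave 1 rise, also near the share over all genes, in the activator gene MAL33 (0.83, adjusted p = 0.0326). Its call was lost without SLAM replicate 1, YPM replicate 1 or YPM replicate 2. The permease genes MAL11 (0.61) and MAL31 (0.63) did not pass. PDC6, a minor pyruvate decarboxylase, rose by 3.39 (SE 0.66), the acetyl-CoA synthetase gene ACS1 by 2.92 and the aldehyde dehydrogenase gene ALD2 by 1.71, 3 of 15 genes of ethanol and acetate formation.

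The pentose phosphate pathway split between enzymes and their paralogues. RKI1, ribose-5-phosphate isomerase, read 5.43, 4.98 and 5.15 in SLAM, against 8.998, 9.08 and 7.62 in YPM and fell at least 10.4-fold (SE 0.49, adjusted p = 0.00082), and GND1 (-2.47), TKL1 (-2.46) and SOL3 (-1.86) fell. The paralogues GND2 (1.78) and SOL4 (1.73) rose, and TKL2 (1.29, adjusted p = 0.229) did not pass. With SLAM replicate 1 left out there was 1 fall in place of 4, with SLAM replicate 3 left out there were 2, and the 2 rises were 1 without SLAM replicate 1, SLAM replicate 3 or YPM replicate 2.

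Calls among respiration genes varied with the arrays kept. In the TCA cycle 5 of 16 genes rose, among them SDH3 (1.50), SDH1 (1.10), ACO1 (0.98) and KGD1 (0.96). In the respiratory chain and ATP synthase 3 of 37 rose, NDE2 (2.84), CYC7 (1.98) and QCR8 (0.83), below the 13.4% higher over all genes. Without YPM replicate 3 the counts were 8 and 14. Dropping SLAM replicate 2 gave 1 and 1, dropping SLAM replicate 3 gave 2 and 2, and dropping SLAM replicate 1, YPM replicate 1 or YPM replicate 2 gave 0 and 0. The respiratory list lay 0.68, 0.69 and 0.12 above the YPM mean on SLAM replicates 1, 2 and 3, against -0.39, -0.12 and 0.51 on YPM replicates 1, 2 and 3, so that the groups overlapped.

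Reserve carbohydrate and stress genes rose in part, with no fall. The trehalose list had 6 of 10 genes higher, with the acid trehalase gene ATH1 (2.01, SE 0.38) first and the synthase genes TPS1 (0.75) and TSL1 (0.94) included. Of 12 glycogen genes 7 rose (median 1.24), led by the phosphatase regulator GIP2 (2.19), the initiator GLG2 (2.08), the glucoamylase gene SGA1 (1.86) and another phosphatase regulator, PIG2 (1.72), while the main synthase gene GSY2 (0.74, adjusted p = 0.0563) and the phosphorylase gene GPH1 (0.56) did not pass. That count was 4 without YPM replicate 1 or YPM replicate 2. Of 26 general stress genes 15 rose (median 1.13), and CTT1, the cytosolic catalase, read 12.75, 12.28 and 12.40 in SLAM, against 7.69, 7.85 and 11.28 in YPM (log2 3.53, SE 0.83, adjusted p = 0.00846). YPM replicate 3 lay more than 3 log2 units above the other YPM arrays for CTT1. The stress count was 10 to 16 with 1 array left out, and 16 without YPM replicate 3.

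Of 33 chaperone genes 6 were higher and 5 lower, close to the 13.4% and 14.8% over all genes. HSP31 (2.04), SSE2 (1.94) and HSP82 (1.16) rose, and SSA2 (-2.005), CCT5 (-1.09) and the ribosome-bound partners SSZ1 (-1.94) and ZUO1 (-1.88) fell. The rises numbered 1 without YPM replicate 1, 2 without SLAM replicate 1 or YPM replicate 2, and 3 without SLAM replicate 3 or YPM replicate 3, and the falls 3 without SLAM replicate 1 or YPM replicate 2. In oxidative defence 9 of 26 genes rose and 1 fell, with GTO1, an omega-class glutathione transferase, at 9.44, 10.00 and 8.78 in SLAM, against 6.56, 6.73 and 6.56 in YPM (log2 2.79, SE 0.29, adjusted p = 0.000243).

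Most genes of autophagy, which digests the cell's own contents, rose. Of 36 autophagy genes 25 rose and none fell, with a median of 1.11. The kinase gene ATG1 read 9.84, 9.81 and 9.51 in SLAM, against 7.31, 7.23 and 7.71 in YPM (log2 2.30, SE 0.47, adjusted p = 0.00395). The receptor genes for selective digestion of the nuclear envelope and endoplasmic reticulum, ATG39 (2.78) and ATG40 (at least 5.84-fold), and the vacuolar peptidase gene ATG42 (1.81) rose as well. The count was 16 without YPM replicate 2 and 17 to 23 with any other array left out. Of 10 genes for vacuolar hydrolases and a protease inhibitor 6 rose, led by the alkaline phosphatase gene PHO8 (2.39, SE 0.27) and the mannosidase gene AMS1 (1.69), and PEP4, the master protease, stood at 0.51 (adjusted p = 0.113). The inhibitor gene PBI2 (0.94) was among the 6, and its call ended with any of the 6 arrays left out. Proteasome genes gave 2 rises in 34, below the share over all genes, the activator gene RPN4 (1.15) and the subunit gene PRE3 (0.55), and RPN4 alone kept its call with each array left out. The TORC1 and nitrogen signalling list gave 3 rises in 22, near the share over all genes, in NPR1 (1.26), a kinase that stabilises permeases, TOR1 (1.01) and SCH9 (0.72). TOR1 lost its call without YPM replicate 1 and SCH9 without YPM replicate 2. None of the other probe sets of TOR1 passed when all probe sets were tested together, the brightest of them standing at 0.46 (adjusted p = 0.194) and 0.36 (adjusted p = 0.356).

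**Figure D4:**
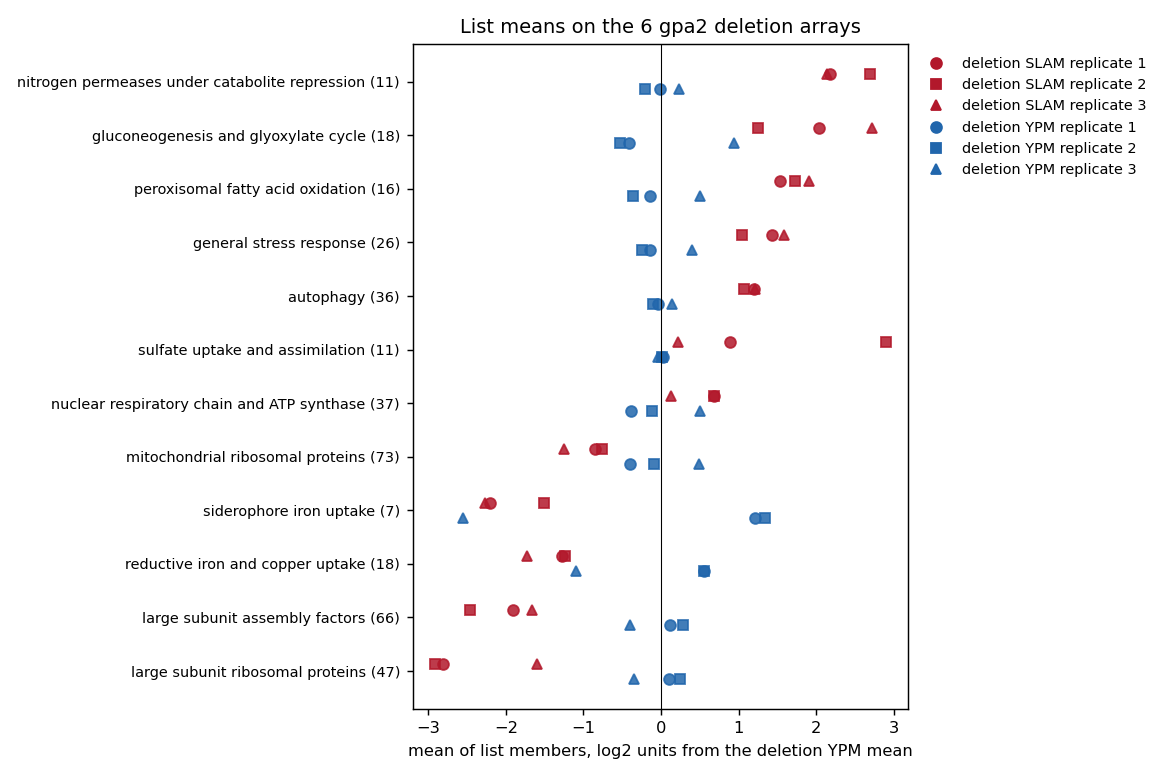
Mean of the measured members of 12 lists (number in brackets) on each gpa2 deletion array, in log2 units from the mean of the 3 deletion YPM arrays, with SLAM arrays in red and YPM arrays in blue. YPM replicate 3 lies close to the SLAM arrays in the iron lists and between the groups in gluconeogenesis. SLAM replicate 2 is far above the other SLAM arrays in sulfate assimilation.

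Amino acid synthesis gave no common direction. In arginine synthesis CPA1 (1.75), ARG4 (1.53) and ARG7 (1.50) rose among 7 genes, and arginase, CAR1, fell by 1.24 (adjusted p = 0.0415, lost without SLAM replicate 1 or 3 or YPM replicate 1 or 2). In leucine synthesis LEU1 rose to 10.71, 10.53 and 10.49 in SLAM, against 7.07, 7.80 and 8.54 in YPM (log2 2.78, SE 0.35, adjusted p = 0.000516), LEU4 rose by 0.87 (lost without YPM replicate 1 or 2) and its isozyme LEU9 fell by 2.04 (SE 0.33). The aromatic pathway fell in 5 of 16 genes, led by ARO4 (-2.33) and ARO2 (-1.48), and its regulator gene ARO80 rose by 0.96. Those 5 falls were 2 without SLAM replicate 1, YPM replicate 1 or YPM replicate 2 and 3 without SLAM replicate 3. In the aspartate family ASN2 (-2.77), THR1 (-1.74), THR4 (-1.59) and HOM3 (-1.19) fell among 9 genes, a count of 2 without SLAM replicate 1, SLAM replicate 3 or YPM replicate 2. MIS1, the mitochondrial tetrahydrofolate synthase, read 5.51, 5.74 and 6.22 in SLAM, against 7.96, 8.71 and 8.70 in YPM (log2 -2.63, SE 0.28). It and the serine enzymes SER2 (-1.81) and SER1 (-0.93) and DFR1 (-1.12) made 4 falls in 14 genes of serine, glycine and one-carbon metabolism. MIS1 alone was left without SLAM replicate 1, SLAM replicate 3, YPM replicate 1 or YPM replicate 2, when the count was 1, and the count was 6 without SLAM replicate 2.

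Methionine synthesis rose at its last steps, within a list that had 6 rises and 2 falls among 18 genes. MET6, methionine synthase, read 11.56, 12.21 and 10.12 in SLAM, against 8.11, 7.04 and 7.49 in YPM (log2 3.75, SE 0.47, adjusted p = 0.00047). MET13, which makes the methyl donor for it, read 11.69, 11.54 and 10.99 in SLAM, against 7.70, 7.90 and 8.27 in YPM (3.45, SE 0.24, adjusted p = 2.75e-05). Both genes kept their calls with each array left out, while the 2 falls, SAH1 (-1.39) and MET7 (-0.74), were 0 without SLAM replicate 1, SLAM replicate 3, YPM replicate 1 or YPM replicate 2. Sulfate assimilation was uneven between the SLAM arrays: its 11 genes lay 0.89, 2.90 and 0.22 above the YPM mean on SLAM replicates 1, 2 and 3. MET10 (2.58), MET3 (2.52), MET5 (1.88) and the permease gene SUL1 (0.92) rose, and MET17 read 12.15, 13.24 and 9.001 in SLAM, against 9.79, 9.39 and 8.88 in YPM (2.11, SE 1.03, adjusted p = 0.148). The 4 rises were 0 without SLAM replicate 2 or YPM replicate 2, 1 without SLAM replicate 1 or YPM replicate 1 and 2 without YPM replicate 3.

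Most purine genes fell, and pyrimidine genes fell in part. Of 12 genes of the GTP branch and purine salvage 8 fell, with a median of -1.48: APT1, which salvages adenine, read 6.97, 7.59 and 7.56 in SLAM, against 10.41, 10.53 and 10.08 in YPM (log2 -2.97, SE 0.34, adjusted p = 0.000325), and the adenine deaminase gene AAH1 fell by 2.84. The IMP dehydrogenase genes IMD4 (-2.88), IMD3 (-2.69) and IMD2 (-1.72) and the GMP synthase gene GUA1 (-2.55) fell too, and the guanine deaminase gene GUD1 rose by 2.07. De novo purine synthesis had 7 falls and 1 rise in 11 (median -1.35), led by ADE2 (-1.94) and ADE4, whose SLAM mean lay under the background guide. For pyrimidines the uracil salvage gene FUR1 (-3.19), the CTP synthase gene URA7 (-2.94) and the uridine permease gene FUI1 (-2.22) fell. URA8 (1.43), the isozyme gene of URA7, and URA10 (2.25) rose, in all 6 falls and 2 rises in 16. URA3, in its ura3-52 form in these cells, stayed under the background guide on all 6 arrays (4.48, 4.20 and 4.31 in SLAM, against 4.98, 4.78 and 4.42 in YPM).

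Metal uptake genes were lower in SLAM than on 2 of the 3 YPM arrays, and the list means of YPM replicate 3 lay close to those in SLAM. FIT2, a cell wall protein that retains siderophore iron, read 7.29, 8.08 and 6.51 in SLAM, against 12.27, 12.38 and 7.49 in YPM (log2 -3.42, SE 1.10, adjusted p = 0.037). YPM replicate 3 lay within the SLAM range for FIT2, so the groups overlapped. The 7 siderophore genes lay at -2.21, -1.51 and -2.27 from the YPM mean on SLAM replicates 1, 2 and 3, against 1.21, 1.34 and -2.55 on YPM replicates 1, 2 and 3. The reductive iron and copper uptake genes lay at -1.28, -1.23 and -1.73, against 0.55, 0.55 and -1.10, so that YPM replicate 3 was a little above each SLAM array. In that list 2 genes fell, in the list of 18 reductive iron and copper uptake genes 5 fell, and without YPM replicate 3 the counts were 6 and 13. The siderophore count was 0 without SLAM replicate 1, SLAM replicate 3, YPM replicate 1 or YPM replicate 2, and the reductive count 2 without YPM replicate 1 or YPM replicate 2 and 3 without SLAM replicate 1 or SLAM replicate 3. CTR1, the high-affinity copper transporter, did not have this pattern, at 7.38, 6.82 and 6.46 in SLAM, against 10.00, 9.80 and 9.36 in YPM (-2.83, SE 0.40, adjusted p = 0.000754), and FRE1, the reductase for copper and iron, fell by 2.79 (SE 0.57). The groups did not overlap in 3 of the 18 reductive genes, CTR1, FRE1 and CTR3, against 44.6% of all genes.

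Of 6 genes of the Gpa2 module 1 rose, and of 13 genes of adenylate cyclase and protein kinase A 4 rose and 1 fell, against 13.4% higher and 14.8% lower over all genes. GPB2, a kelch protein that binds Gpa2 and restrains protein kinase A signalling, read 7.68, 7.20 and 7.97 in SLAM, against 5.77, 6.32 and 6.06 in YPM (log2 1.57, SE 0.36, adjusted p = 0.00774). Its paralogue GPB1 (0.06), the receptor gene GPR1 (0.55) and RGS2, which turns Gpa2 off (0.64, adjusted p = 0.0828), did not pass. In the protein kinase A list YAK1 (1.48), a kinase that opposes protein kinase A in growth control, the catalytic subunit gene TPK2 (1.02), the phosphodiesterase gene PDE1 (0.92) and the regulatory subunit gene BCY1 (0.82) rose. TPK3, another catalytic subunit gene, fell at least 2.92-fold to 5.50, 5.63 and 5.26 in SLAM, against 7.20, 7.38 and 6.45 in YPM. Those 4 rises were 2 without YPM replicate 2, and the 1 fall was 2 without SLAM replicate 1.

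Filamentous growth genes did not move as a group. The counts in this paragraph stand beside 13.4% higher and 14.8% lower over all genes. FLO11, the flocculin of pseudohyphal growth, was bright in both media, at 13.45, 13.65 and 12.75 in SLAM, against 13.26, 13.29 and 12.66 in YPM (log2 0.21, SE 0.27, adjusted p = 0.591), and its groups overlapped. Of 14 FLO11 and filamentous growth factors, XBP1, a stress-induced repressor, rose (2.24, SE 0.36). The filamentous MAP kinase list had 1 rise, STE11 (0.74), and 1 fall, STE20 (-0.68), among 15 genes. The rise was 0 without SLAM replicate 1 or any YPM array and 2 without SLAM replicate 2 or 3, and the fall 0 without SLAM replicate 3, YPM replicate 1 or YPM replicate 2 and 3 without SLAM replicate 2. Among 16 genes for cyclins and their kinase CLN2 fell (-1.01, adjusted p = 0.0394). Of the 6 cases with an array left out the count was 1 without YPM replicate 3, 3 without SLAM replicate 2 and 0 in the rest, with CLN2 itself passing in 1 of them. The cell separation gene CTS1 rose (0.94) among 10 genes, and was called in 2 of the 6 cases with an array left out. Of 17 genes of meiosis entry 6 rose, among them DMC1 (1.18), whose other probe set stood at 0.44 (adjusted p = 0.392 among all probe sets), and RIM11 (0.81). All 6 readings of another of them, SMK1 (adjusted p = 0.00848), lay under the background guide. That count was 1 without SLAM replicate 1, YPM replicate 1 or YPM replicate 2, 2 without SLAM replicate 3 and 3 without YPM replicate 3.

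Several of the largest changes fell in none of these groups. YCL048W-A, a small gene of unknown function, read 12.63, 12.23 and 12.25 in SLAM, against 7.17, 6.07 and 8.72 in YPM (log2 5.05, SE 0.80, adjusted p = 0.00128). SPG4, needed in stationary phase at high temperature, rose by 4.29, PHM7 by 4.14, SHH3, a mitochondrial relative of a succinate dehydrogenase subunit, by 3.88, LEE1, a zinc-finger protein, by 3.86 and BDH2, an alcohol dehydrogenase relative, by 3.78. VHR2 read 6.42, 6.98 and 6.70 in SLAM, against 10.99, 10.56 and 10.32 in YPM (-3.93, SE 0.30, adjusted p = 4.09e-05). The 15 largest rises and 15 largest falls all kept their calls in every alternative that tested them.

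The same move in the wild type gave 296 genes higher (5.23%) and 415 lower (7.34%), of which 238 and 350 passed in the same direction in the deletion and 0 in opposite directions. The difference between the responses was tested for every gene in the same limma fit. It passed for 0 genes (0.0%), 228 genes (4.03%) had an unadjusted p under 0.05, and the smallest adjusted p was 0.173, for GTO1. Array weights, which count less those arrays that lie far from their group, gave 86 genes more positive and 144 more negative in the deletion. The weights ran from 0.15 for wild-type SLAM replicate 2 to 4.18 for wild-type YPM replicate 3. Deletion SLAM replicates 1, 2 and 3 had 4.12, 0.45 and 0.29, so that some group means in this setting rest largely on 1 array. GTO1 changed by 2.79 in the deletion and 0.11 in the wild type, a difference of 2.69 (95% interval 1.78 to 3.59). Among genes of nitrogen use the difference was 0.26 for MEP2 (-1.37 to 1.89), -0.15 for GAP1 (-1.26 to 0.97) and 1.25 for DAL80 (-0.76 to 3.26), with intervals that held 0. It was -1.79 for GDH1 (-3.13 to -0.45) and 1.39 for AGP3 (0.43 to 2.35), with intervals that did not. For FLO11 it was -0.09 (-0.92 to 0.73). Among genes for the ribosome it was -1.93 for NOP1 (-3.45 to -0.41) and -1.97 for RPL13A (-3.48 to -0.46), while for RPS22B, whose probe set may match other genes, it was -0.01 (-1.16 to 1.15). GDH1, AGP3, NOP1 and RPL13A each had an adjusted p of 0.98 for this difference. These intervals are not adjusted for the number of genes.

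List medians of the 2 strains are set side by side as a description. Large subunit ribosomal protein genes had a median of -2.56 in the deletion and -1.24 in the wild type, small subunit genes -2.51 and -1.23, and processome genes -1.92 and -1.23. Permeases under nitrogen catabolite repression had 3.06 in the deletion and 1.89 in the wild type, and gluconeogenesis 1.97 and 0.92. Mitochondrial ribosomal protein genes had -1.002 in the deletion and -1.04 in the wild type. Wild-type SLAM replicate 2 lay with the YPM side of the first component, at -10.8, against 19.4 and 28.4 for the other wild-type SLAM arrays. Without it the wild-type medians were -1.50 and -1.44 for the ribosomal subunits, -1.31 for the processome, 2.71 for the permeases, 1.17 for gluconeogenesis and -1.31 for mitochondrial ribosomal proteins. The median of the differences of single genes, deletion minus wild type, can depart from the gap between medians. For the permeases it was 0.33, and -0.44 without wild-type SLAM replicate 2. For large subunit ribosomal protein genes these values were -1.195 and -0.86, and for gluconeogenesis 0.92 and 0.57. No list was tested for a difference between strains.

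**Figure D5:**
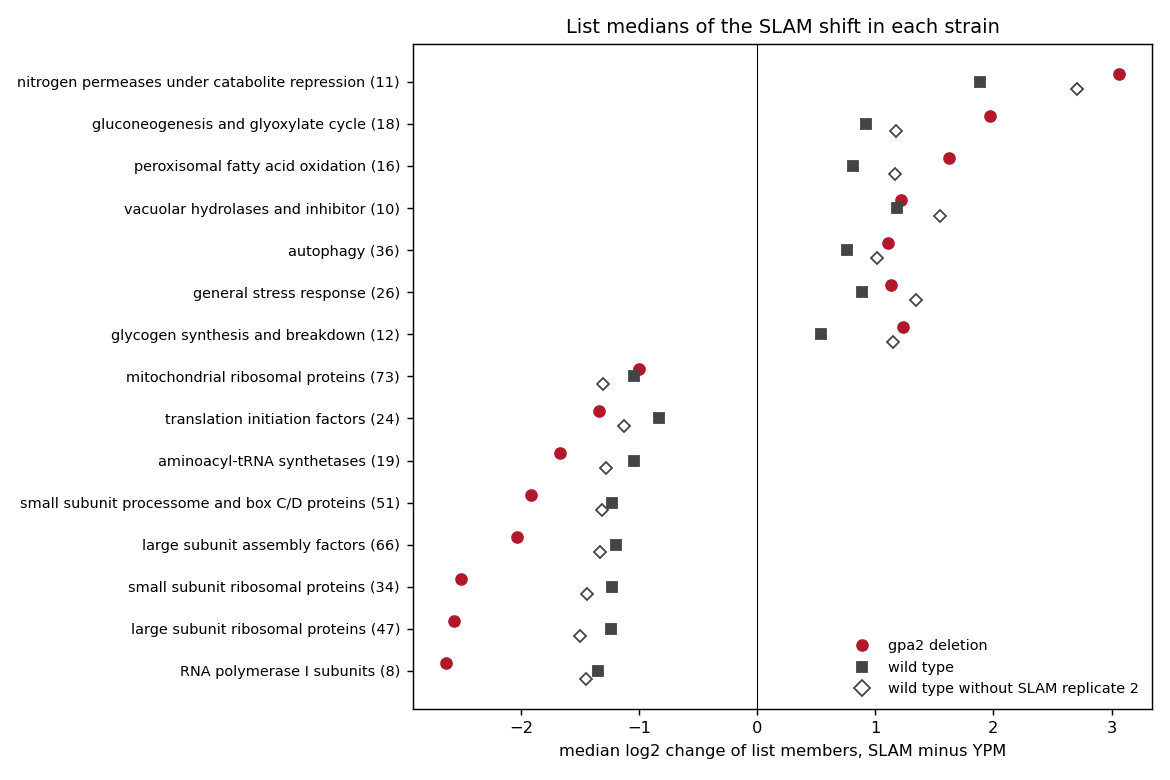
Median log2 change between SLAM and YPM over the measured members of 15 lists (number in brackets) in the gpa2 deletion (red circles), the wild type (filled squares) and the wild type without SLAM replicate 2 (open diamonds). The ribosomal protein, assembly factor and polymerase I medians lie further below 0 in the deletion. The filled symbols lie closest together for vacuolar hydrolases and inhibitor and for mitochondrial ribosomal proteins.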

How the data were processed

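RNA from 12 yeast samples was labelled and hybridised to Affymetrix Yeast S98 arrays. The deposited values are on a log2 scale, for 9335 probe sets. GCOS 1.2, MAS5 and RMA are named in the submitters' processing notes, but which of these made the values is not stated, and detection calls were not given in the sources used here. The values were used as they stand. The 60 control probe sets and those with several symbols (328) or none (2443) were left out. The 6504 IDs that remained all matched a RefSeq gene table (assembly R64), with 0 symbols updated. For 315 genes with several probe sets the brightest was kept, and 300 of the 5656 genes lay on probe sets marked as able to match other genes.

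In R 4.3.3, limma 3.58.1 was used to fit a mean for each of the 4 groups over the 12 arrays, with empirical Bayes moderation (8 residual and 4.11 prior degrees of freedom), two-sided, with Benjamini-Hochberg adjustment over all genes. Errors are standard errors unless marked SD. Their median was 0.29 for the deletion response and 0.41 for the difference between strains, and 3 arrays a group limit the precision. Values on arrays are relative to the other transcripts of a sample, and in bulk samples fewer cells of a type and less RNA per cell cannot be told apart. Scripts were tested on simulated data.

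The lists, written from general knowledge, and the genes described were chosen with earlier results of these data known, and no list was tested as a set. Named were the 15 largest rises and falls that passed without overlap, GPA2, FLO11 and URA3, and for each list up to 4 passing members in each direction, or, in lists of up to 12, any member. GTO1 as the smallest p of the difference, and the ribosomal protein pairs described copy by copy were named after their values were seen. Alternatives were quantile normalization, median centring, a floor at the 10th percentile (4.31), keeping the 3770 brightest genes, all 9275 probe sets, leaving out the probe sets that may match other genes (5445 genes), the 6 deletion arrays alone, a variance trend with robust moderation, array weights, adjusted p < 0.01, a 2-fold filter and each array left out in turn. Leaving out YPM replicate 3 and SLAM replicate 2 together was chosen after seeing the data. Promoter sequences and genome coordinates were not used here.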

Additional observations from a re-analysis of the deposited data

Results flagged for a closer look

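Probe sets left out of the gene counts also differed between deletion SLAM and deletion YPM when all 9275 probe sets were tested together. Of 2443 probe sets with no gene symbol, 5.03% passed, 84 higher in SLAM and 39 lower. Among 328 with several symbols 25.3% passed, 21 higher and 62 lower. Of those with several symbols, 59 carried ribosomal protein symbols only, and 57 of these were lower, with a median log2 change of -2.24 and a range from -3.39 to -0.51. The other 269 had 5 lower and 21 higher, with a median of 0.10.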

How the results depend on the processing

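The 757 rises in the deletion numbered 599 to 813 under quantile normalization, median centring, the floor, keeping the 3770 brightest genes, all probe sets, leaving out those that may match other genes, the 6 deletion arrays alone and the variance trend, and the 835 falls 632 to 896. Array weights gave 1812 rises and 1511 falls, adjusted p < 0.01 gave 337 and 483, and the 2-fold filter 500 and 662. With 1 array left out the rises ranged from 402 to 722 and the falls from 543 to 896. The difference between strains gave 0 genes under all of these except array weights (86 more positive and 144 more negative in the deletion), and 0 to 1 more positive and 0 to 2 more negative with 1 of the 12 arrays left out, the 1 without deletion SLAM replicate 3 and the 2 without wild-type SLAM replicate 3. The GPA2 difference lay between -5.20 and -4.92 in every case run. Of 266 named genes that passed, 155 kept the call in all 18 alternatives that tested them, 111 lost it in at least 1 and 0 reversed, with 105 lost at adjusted p < 0.01 and 87 without YPM replicate 2. The cause of these shifts was not tested, beyond fewer arrays or a stricter threshold by construction. Under each alternative the median change of all genes stayed between -0.01 and 0.07. Genes near the background guide have a change that is limited by signal over background. No paired analysis was possible because the labels give no replicate numbers that SLAM and YPM arrays share: the numbers used here follow the order of deposit and only name the arrays.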

Other observations

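The lists held 1133 of the 5656 genes, of which 194 rose and 377 fell in deletion SLAM. The 4523 genes in no list gave 563 rises and 458 falls. Over all genes 13.4% rose and 14.8% fell. Of 522 genes known by a systematic name only, 80 rose (15.3%) and 31 fell (5.94%), against 677 (13.2%) and 804 (15.7%) of 5134 genes with a symbol.

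The share of calls differed with brightness. Among the 1414 dimmest genes by mean level 8.2% rose and 9.76% fell in deletion SLAM, and among the 1414 brightest 17.6% rose and 18.4% fell. With the genes cut into 4 classes of this size, the median change in each lay between -0.04 and 0.04 on the log2 scale.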
